A study of Mus musculus with 6 samples.

Results

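The genes described here make, move, store and export cholesterol: 19 enzymes of its synthesis, 4 genes of the SREBP2 control system, 4 genes of sterol transport and storage, and 5 genes of sterol efflux and its receptors, the LXRs. They are the rows of the deposited expression table whose symbol is on a fixed list of 32 genes, out of 55291 symbols, and all 32 reached the mean value of 10 required for testing, as did 13170 symbols in all. The lowest mean was that of Nr1h3, 20.5, and no member lay below the minimum. The cells were wild-type CD4+ T cells from the spleen of C57BL/6 mice, 3 libraries from cells kept for 48 h with 5 mM itaconate and 3 from cells kept with 5 mM NaCl. Both groups were stimulated through CD3 and CD28 with antibodies, had IL-2 at 200 U, and were loaded with CFSE, a dye used to follow divisions. Itaconate is a dicarboxylic acid that activated macrophages release. The control columns are coded NAC in the table and are taken here as the NaCl libraries, the other treatment that the labels name, though the code itself is not spelled out. The number of mice, their age and whether the 3 libraries of a group are separate cultures are not stated in the labels, so the p-values cover only the spread between these libraries.

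A cell that runs short of sterol in its endoplasmic reticulum lets SCAP carry SREBP2 to the Golgi, where SREBP2 is cut into an active transcription factor for the genes of cholesterol synthesis and lipoprotein uptake. INSIG proteins hold SCAP back when sterol is plentiful. Oxysterols act the other way, through the nuclear receptors LXR alpha and LXR beta, which induce the exporters ABCA1 and ABCG1. T cells that leave rest and begin to divide are known to switch on sterol synthesis and to keep LXR activity low, since each division needs new membrane.

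The promoters of the synthesis genes share short sequence elements that are read together with SREBP2. Promoter windows of 250 bases before to 50 bases after the start were found in RefSeq (GRCm38.p6) for 26 of the 32 genes. The 6 without a window, Fdps, Fdft1, Sqle, Stard4, Npc1 and Abcg1, were not searched and enter none of the counts below. The CCAAT box, the element of the factor NF-Y, was searched as CCAAT on both strands. It occurred in 20 of the 22 synthesis, transport and storage genes with a window (90.9%), in 1 of 4 of the efflux and LXR genes (25.0%), and in 43.4% of tested genes and 41.1% of all 27025 genes with a window. Where a gene has several start sites, a match in any window counted. Of the synthesis, transport and storage genes that did not rise with itaconate, 5 of 6 had the box, and of all members that rose 15 of 16 had it (93.8%), as a description with no test. GGGCGG, a GC box of the factor Sp1, was in 23 of 26 members (88.5%), against 68.7% of tested genes and 38.2% of all. A strict form of the sterol regulatory element, TCACNCCAC, was found in 1 member, Hmgcs1, and in 1.44% of all genes with a window. The DR4 element, the LXR site, was searched as AGGTCA repeated after 4 bases with at most 1 mismatch in each copy. No member held a match to that form, which 2.02% of all genes held. The Abca1 window holds a looser repeat on the other strand, GGGTTA and CGGTCA with 4 bases between them. Its first copy has more than 1 mismatch, so it was not counted, and the search does not show that Abca1 lacks an LXR site. All these searches match letters over short windows, and an element with other letters or farther away is not seen. The upstream bases are shown for Hmgcs1, which had the strict sterol element and the largest rise. They are also shown for Mvd and Nsdhl, which rose and have CCAAT boxes, and for Mvk, which has them and did not pass the test. The last is Abca1, an LXR target with no CCAAT box in its window. Each runs 5′ to 3′ towards the start, and capitals mark the CCAAT box (ATTGG where it is on the other strand) and the sterol element (TCACCCCAC).
Hmgcs1 (GRCm38, chr13:119690101-119690350, plus strand): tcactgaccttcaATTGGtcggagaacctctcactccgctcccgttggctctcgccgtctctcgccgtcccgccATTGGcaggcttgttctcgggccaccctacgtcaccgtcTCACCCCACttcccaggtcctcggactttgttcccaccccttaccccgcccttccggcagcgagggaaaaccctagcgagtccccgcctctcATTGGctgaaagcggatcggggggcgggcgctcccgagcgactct
Mvd (GRCm38, chr8:122443423-122443672, minus strand): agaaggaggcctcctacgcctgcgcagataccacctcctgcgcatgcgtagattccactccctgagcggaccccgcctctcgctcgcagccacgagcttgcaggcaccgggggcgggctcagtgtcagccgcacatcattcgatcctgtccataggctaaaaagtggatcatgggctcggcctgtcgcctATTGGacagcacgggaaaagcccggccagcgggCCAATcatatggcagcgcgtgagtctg
Nsdhl (GRCm38, chrX:72918271-72918520, plus strand): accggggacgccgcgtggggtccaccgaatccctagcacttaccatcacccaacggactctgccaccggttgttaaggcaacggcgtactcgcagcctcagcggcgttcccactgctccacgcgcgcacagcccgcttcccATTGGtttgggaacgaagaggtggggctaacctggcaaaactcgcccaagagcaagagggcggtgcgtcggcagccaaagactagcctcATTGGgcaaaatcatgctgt
Mvk (GRCm38, chr5:114444019-114444268, plus strand): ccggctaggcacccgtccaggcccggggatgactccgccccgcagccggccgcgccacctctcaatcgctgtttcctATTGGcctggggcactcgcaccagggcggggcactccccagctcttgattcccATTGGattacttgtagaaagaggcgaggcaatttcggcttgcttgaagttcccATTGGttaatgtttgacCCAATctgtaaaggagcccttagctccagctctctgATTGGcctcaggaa
Abca1 (GRCm38, chr4:53159896-53160145, minus strand): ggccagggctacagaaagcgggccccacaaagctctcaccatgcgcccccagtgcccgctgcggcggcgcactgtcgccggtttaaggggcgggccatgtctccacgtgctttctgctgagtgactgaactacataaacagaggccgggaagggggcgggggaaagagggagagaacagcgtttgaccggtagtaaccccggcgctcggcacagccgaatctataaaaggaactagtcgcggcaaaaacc

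**Figure D1:**
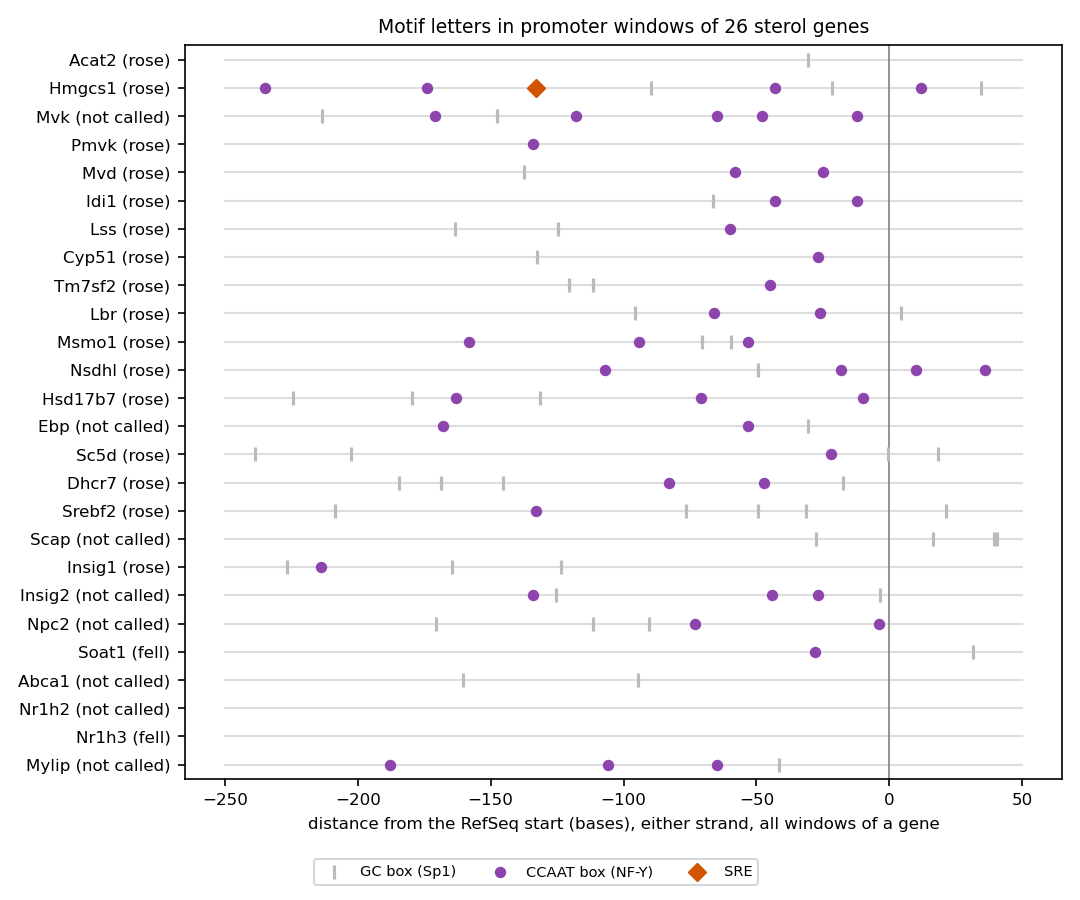
Positions of the GC box, the CCAAT box and the strict sterol regulatory element (SRE) on either strand in the RefSeq promoter windows of 26 members; the x axis is the distance from the start in bases, and each gene's call with itaconate is in brackets. CCAAT boxes lie in the windows of 20 of 22 synthesis, transport and storage genes, whether or not they rose, and in 1 of 4 efflux and LXR genes.

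With itaconate, 21 of the 32 genes rose, 2 fell and 9 did not pass the test (limma on log2(value + 1), Benjamini-Hochberg adjusted p under 0.05 over all 13170 tested genes). Over all tested genes 18.2% rose and 17.8% fell. Most rises lay on the synthesis side: 20 of the 27 synthesis, control, transport and storage genes rose and 1 fell, with a median log2 fold change of 0.68. Of the 5 efflux and LXR genes, 1 rose and 1 fell, with a median log2 fold change of 0.06. The median over all tested genes was -0.001. The 3 itaconate values lay wholly above the 3 NaCl values for 22 members and wholly below for 3, against 24.2% of tested genes above and 24.2% below. The difference between the sides was not tested, since the members were chosen with earlier results of these data known. RNA from these bulk cultures cannot tell apart a change per cell from a change in which cells were present.

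**Figure D2:**
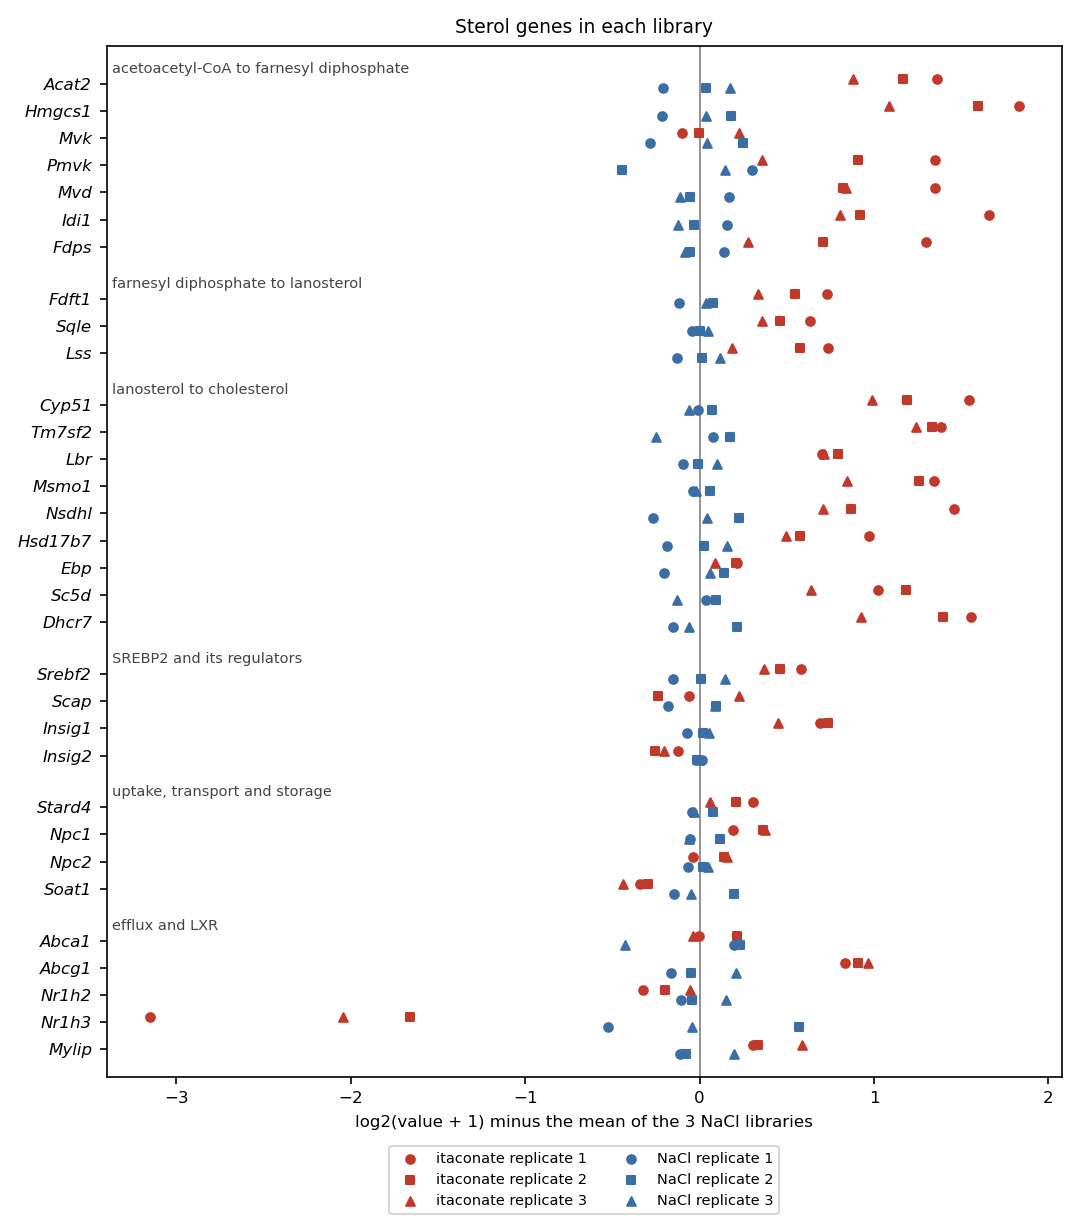
Every library's log2(value + 1) minus the mean of the 3 NaCl libraries (x axis) for the 32 genes, ordered by role; red symbols are itaconate and blue symbols NaCl libraries. Nearly all synthesis enzymes have their 3 itaconate points right of the NaCl points, and Nr1h3 lies far to the left.

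Levels per kilobase of annotated exon spanned a wide range. Npc2, which binds cholesterol inside lysosomes, stood highest, at 2974 ± 215 normalized estimated counts per kilobase with itaconate and 2797 ± 112 with NaCl (SD, n = 3 each). Srebf2 followed, at 1747 ± 132 with itaconate and 1263 ± 129 with NaCl. The third was Lbr, at 1381 ± 47.1 with itaconate and 829.9 ± 56.2 with NaCl. With itaconate the next in order were Hmgcs1 (1267 ± 316) and Cyp51 (1009 ± 202), and Lbr and Hmgcs1 did not differ beyond their spread. With NaCl the next was Nr1h2, the LXR beta gene (815.7 ± 78.0), within the spread of Lbr. The lowest levels were those of the exporter gene Abca1, at 26.4 ± 2.59 and 25.8 ± 6.07 per kilobase with itaconate and NaCl, and of Nr1h3, the LXR alpha gene, at 2.61 ± 1.38 with itaconate and 13.7 ± 5.41 with NaCl. Hmgcs1 lies on chromosome 13 (119690379 to 119708260, plus strand), Soat1 on chromosome 1 (156424525 to 156474331, minus strand), Abcg1 on chromosome 17 (31057675 to 31117988, plus strand) and Nr1h3 on chromosome 2 (91184061 to 91202834, minus strand) of GRCm38, and all 32 are annotated as protein coding. All values below are normalized estimated counts per gene, not per length.

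The first stretch of the pathway builds farnesyl diphosphate from acetyl units, and 6 of its 7 measured enzymes rose, with a median log2 fold change of 1.00. Hmgcs1, HMG-CoA synthase, had 7136, 6062 and 4265 counts in the itaconate libraries and 1732, 2273 and 2056 in the NaCl libraries. Every itaconate library was higher than every NaCl library, by a log2 fold change of 1.503 ± 0.159 SE (adjusted p = 2.42e-05), the largest rise among the 32. Acat2, the cytosolic thiolase that makes acetoacetyl-CoA, had 1829, 1597 and 1312 counts with itaconate and 615, 730 and 804 with NaCl, a log2 fold change of 1.13 ± 0.14 SE (adjusted p = 6.51e-05). Its near copy Acat3 was between 0 and 5.34 in all 6 libraries. Mvd, the mevalonate diphosphate decarboxylase gene, had 1517, 1050.5 and 1065 counts with itaconate and 667, 571 and 550.1 with NaCl (log2 fold change 1.00 ± 0.15 SE, adjusted p = 0.000237). Idi1, the isomerase that makes dimethylallyl diphosphate, had 3427, 2054 and 1902 counts with itaconate and 1210, 1064 and 997 with NaCl (log2 fold change 1.13 ± 0.18 SE, adjusted p = 0.000434). The groups of both genes were apart, and itaconate replicate 1 stood well above the other itaconate libraries.

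Fdps, farnesyl diphosphate synthase, and Pmvk, phosphomevalonate kinase, rose with more spread. Fdps had 5131, 3404 and 2526 counts with itaconate and 2298, 2006 and 1965 with NaCl (log2 fold change 0.76 ± 0.19 SE, adjusted p = 0.0074). Pmvk had 1477, 1088 and 742 counts with itaconate and 712, 424 and 640 with NaCl (log2 fold change 0.87 ± 0.23 SE, adjusted p = 0.0101). In both genes itaconate replicate 3 was only just above the highest NaCl library. The call of Pmvk ended without NaCl replicate 2 (adjusted p = 0.0522) and in limma without an intensity trend or with robust variances, in a range of 0.000598 to 0.0884 over the alternatives, and the last 2 settings also ended that of Fdps (0.00015 to 0.0814). Mvk, mevalonate kinase, was the exception in this stretch: it had 280, 299.7 and 351 counts with itaconate and 246, 357 and 309 with NaCl. The groups overlapped, and the 95% interval of the log2 difference ran from -0.33 to 0.41 (adjusted p = 0.878).

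The next steps lead to squalene and lanosterol. Fdft1, squalene synthase, Sqle, squalene epoxidase, and Lss, lanosterol synthase, all rose, with a median log2 fold change of 0.50. Sqle had 2220, 1969 and 1831 counts with itaconate and 1386, 1432 and 1478 with NaCl (log2 fold change 0.48 ± 0.10 SE, adjusted p = 0.00223). Fdft1 averaged 1782 ± 244 counts with itaconate and 1221 ± 85.4 with NaCl (SD, n = 3 each; log2 fold change 0.54 ± 0.11 SE, adjusted p = 0.00291). Of its exon bases 18.3% overlap exons of Ctsb on the other strand, a gene with a mean of 4477 counts that itself rose (log2 fold change 0.26 ± 0.09 SE), and the strand setting of the counting is not given. Lss averaged 1668 ± 312 counts with itaconate and 1169 ± 101 with NaCl (log2 fold change 0.50 ± 0.13 SE, adjusted p = 0.0113), and it did not pass once itaconate replicate 2 was left out (adjusted p = 0.0534) or with no intensity trend, in a range of 0.000598 to 0.0731. In each of the 3 genes the groups did not overlap.

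From lanosterol to cholesterol, 8 of 9 enzymes rose, with a median log2 fold change of 1.01. Cyp51, the demethylase that acts on lanosterol, had 5433, 4238 and 3693 counts with itaconate and 1848, 1952 and 1786 with NaCl (log2 fold change 1.24 ± 0.12 SE, adjusted p = 1.47e-05). Msmo1, Nsdhl and Hsd17b7 encode the enzymes that then strip the remaining methyl groups, and they changed by 1.15 ± 0.12, 1.01 ± 0.19 and 0.68 ± 0.18 (log2 fold change ± SE). Nsdhl averaged 636 ± 183 counts with itaconate and 310 ± 52.6 with NaCl (SD, n = 3 each). Hsd17b7, the lowest of the 3 by count, averaged 299.5 ± 55.3 with itaconate and 185 ± 22.1 with NaCl, and it no longer passed once itaconate replicate 1 was left out (adjusted p = 0.0514, range 0.0072 to 0.0514).

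Tm7sf2 and Lbr encode reductases of the same step, and Lbr is also the lamin B receptor of the inner nuclear membrane. Tm7sf2 had 357, 344 and 323 counts with itaconate and 144, 154 and 114 with NaCl, far apart and with little spread (log2 fold change 1.32 ± 0.17 SE, adjusted p = 0.000112). Its exons overlap those of Vps51 on the same strand over 12.1% of their length, and Vps51, at a mean of 1160 counts, also rose (log2 fold change 0.54 ± 0.11 SE). Reads from the shared bases could be assigned to either gene. Lbr had 6426, 6833 and 6466 counts with itaconate and 3697, 3927 and 4230 with NaCl (log2 fold change 0.74 ± 0.08 SE, adjusted p = 3.82e-05). Both reductase genes rose, and Lbr was the more abundant of them per kilobase in both groups.

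The final steps were split. Dhcr7, a reductase of the last steps, had 1255, 1121 and 812 counts with itaconate and 383, 495 and 408 with NaCl (log2 fold change 1.29 ± 0.16 SE, adjusted p = 8.13e-05). Sc5d, a sterol desaturase, averaged 1683 ± 315 with itaconate and 862 ± 66.9 with NaCl (log2 fold change 0.95 ± 0.13 SE, adjusted p = 0.000188). Ebp, the isomerase that works just before Sc5d, did not pass: it had 629, 625 and 575 counts with itaconate and 470.1, 597 and 564 with NaCl. The groups overlapped, and the 95% interval of the log2 difference was -0.10 to 0.45 (adjusted p = 0.321). That interval overlaps the one of Hsd17b7 (0.29 to 1.07) and lies below the one of Sc5d (0.66 to 1.24). Differences between genes were not tested. In all, 17 of the 19 enzymes of synthesis rose, with Mvk and Ebp as the exceptions.

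**Figure D3:**
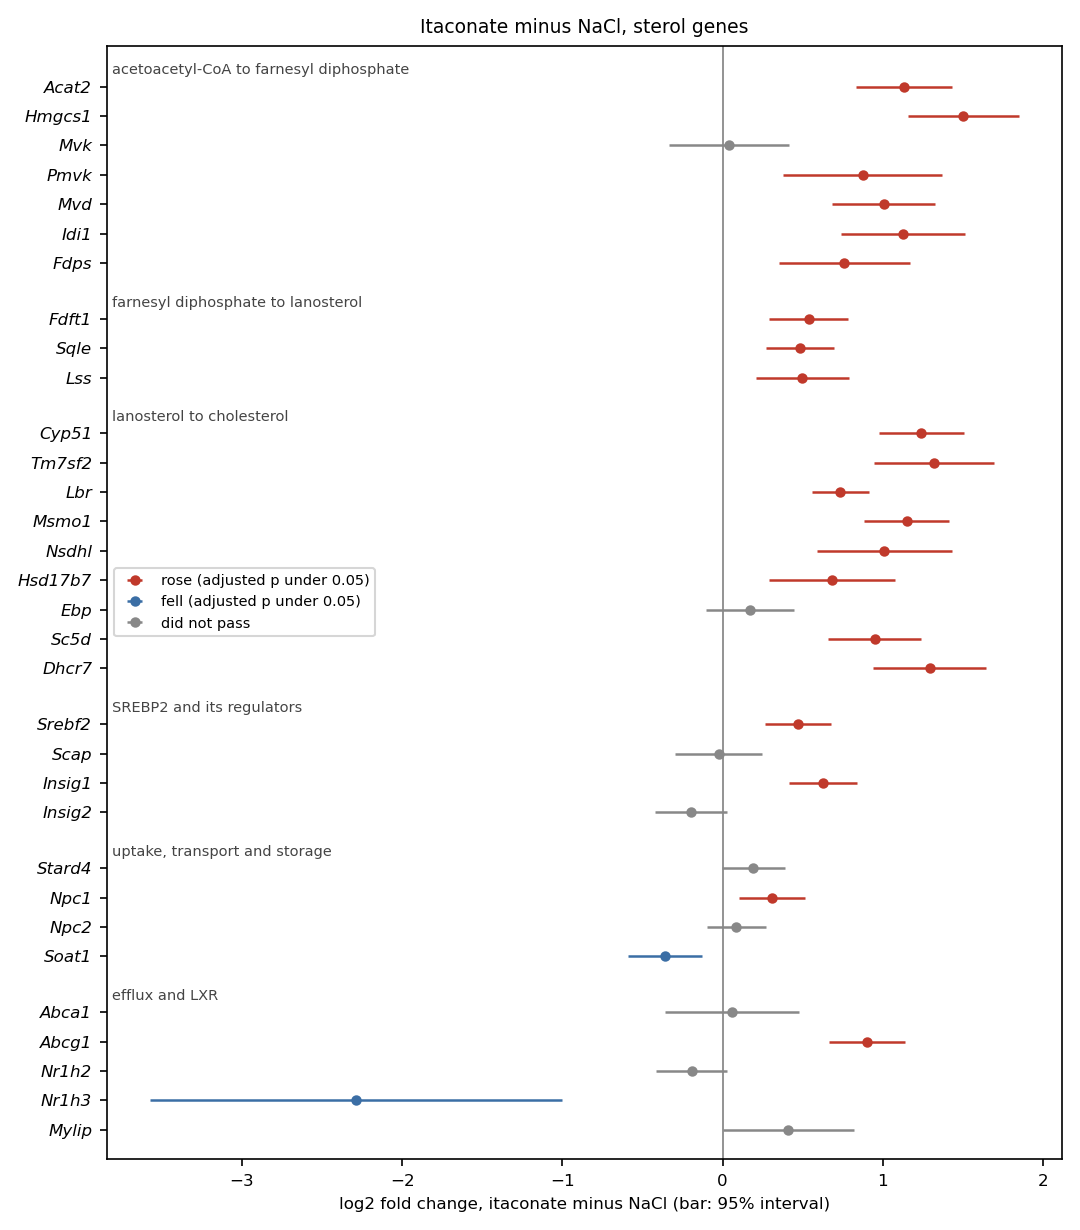
Log2 fold change of itaconate minus NaCl for each gene with its 95% interval, by role; red genes rose, blue genes fell and grey genes did not pass at an adjusted p under 0.05. Most enzymes lie between 0.48 and 1.503, Mvk and Ebp have intervals that include 0, and the efflux and LXR genes range from -2.29 for Nr1h3 to 0.90 for Abcg1.

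The control genes of SREBP2 moved unevenly. Srebf2, which encodes SREBP2 and is one of its own targets, had 13541, 12443 and 11660 counts with itaconate and 8141, 9083 and 9997 with NaCl (log2 fold change 0.47 ± 0.10 SE, adjusted p = 0.00222), with no overlap of the groups. Scap, its escort, averaged 1834 ± 300 with itaconate and 1857 ± 198 with NaCl, and the 95% interval of the log2 difference was -0.29 to 0.24 (adjusted p = 0.896). Of the INSIG genes 1 passed. Insig1, a target of SREBP2, had 2750, 2840 and 2332 counts with itaconate and 1621, 1727 and 1773 with NaCl (log2 fold change 0.62 ± 0.10 SE, adjusted p = 0.00041). Insig2, the form that does not depend on SREBP2, had 748, 682 and 707 counts with itaconate and 825, 809 and 814 with NaCl, each itaconate library below each NaCl library, but the fall did not pass the test (log2 fold change -0.20 ± 0.10 SE, adjusted p = 0.163). The count ratio of Insig1 to Insig2 was 3.67, 4.16 and 3.30 with itaconate and 1.96, 2.13 and 2.18 with NaCl.

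Of the 3 members that carry sterol inside the cell, Npc1 rose, and Npc2 and Stard4 did not pass the test. Npc1, the membrane protein that exports cholesterol from lysosomes, had 2337, 2636 and 2656 counts with itaconate and 1972, 2219 and 1963 with NaCl (log2 fold change 0.31 ± 0.09 SE, adjusted p = 0.0211). The groups were just apart, and the call ended without itaconate replicate 2 or 3, without NaCl replicate 1 or 3, and without an intensity trend (adjusted p = 0.00663 to 0.088 over the alternatives). Its lysosomal partner Npc2 averaged 16173 ± 1172 with itaconate and 15209 ± 607 with NaCl (log2 fold change 0.09 ± 0.09 SE, adjusted p = 0.454). Npc2 passed after quantile normalization (adjusted p = 0.0121, range 0.0121 to 0.708). Stard4, a cytosolic sterol carrier and SREBP2 target, averaged 3047 ± 256 and 2663 ± 128 with itaconate and NaCl and did not pass (log2 fold change 0.19 ± 0.09 SE, adjusted p = 0.12), though it did without itaconate replicate 3 (0.0476, range 0.0476 to 0.336).

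The storage gene fell. Soat1, which esterifies cholesterol for storage in droplets, had 1355, 1395 and 1267 counts with itaconate and 1549, 1969 and 1657 with NaCl. All itaconate values were below all NaCl values, and the log2 fold change was -0.36 ± 0.11 SE (adjusted p = 0.0197). The call ended without NaCl replicate 2, its highest control (log2 fold change -0.26, adjusted p = 0.0966), and without an intensity trend (adjusted p = 0.0731), in a range of 0.00586 to 0.0966. Soat2, the other sterol esterification gene and not one of the 32, had 523, 739 and 948 counts with itaconate and 3141, 2605 and 2648 with NaCl, a log2 fold change of -1.96 ± 0.17 SE (adjusted p = 6.69e-06).

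**Figure D4:**
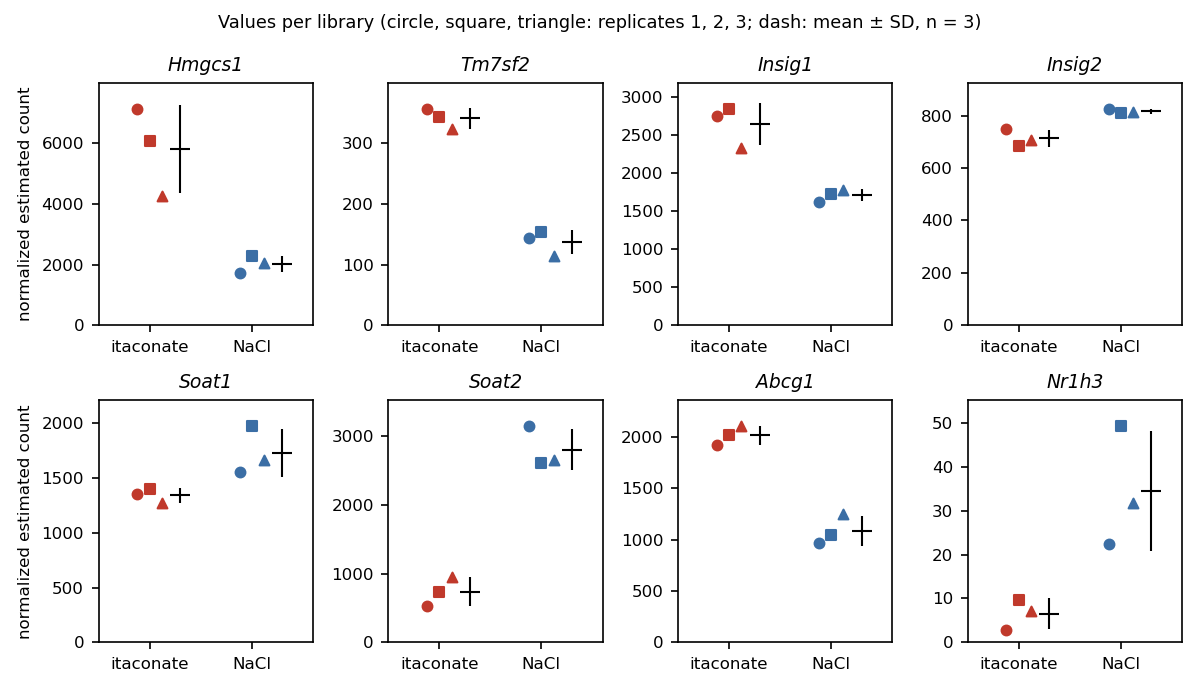
Normalized estimated counts (y axis, from 0) of 8 genes in each itaconate and NaCl library, with the mean and SD of each group (n = 3). Hmgcs1, Tm7sf2, Insig1 and Abcg1 are higher in all 3 itaconate libraries; Soat1, Soat2 and Nr1h3 are lower in all 3, as is Insig2, which did not pass the test.

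The efflux and LXR genes did not move together. Abcg1, which exports cholesterol to lipoprotein particles and is a classical LXR target, had 1920.2, 2023 and 2106 counts with itaconate and 964, 1044 and 1247 with NaCl (log2 fold change 0.90 ± 0.11 SE, adjusted p = 6.51e-05). The groups were well apart. Abca1, the other LXR-induced exporter, had 261, 304 and 255 counts with itaconate and 299.8, 306 and 194 with NaCl, fully overlapping, with a 95% interval of -0.36 to 0.48 for the log2 difference (adjusted p = 0.838). Mylip, an LXR-induced ubiquitin ligase that removes lipoprotein receptors, had 174, 177 and 211 counts with itaconate and 129.5, 133 and 161 with NaCl. Its groups did not overlap, but the difference did not pass (log2 fold change 0.41 ± 0.19 SE, adjusted p = 0.109).

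Of the receptors, LXR beta was abundant and LXR alpha scarce. Nr1h2 had 2176, 2376 and 2628 counts with itaconate and 2534, 2642 and 3032 with NaCl (log2 fold change -0.19 ± 0.10 SE, adjusted p = 0.158). It passed only with the replicate number as a block (adjusted p = 0.0449, range 0.0449 to 0.451). Nr1h3 had 2.81, 9.67 and 7.18 counts with itaconate and 22.4, 49.2 and 31.8 with NaCl, with no overlap. On the log2(value + 1) scale it fell by 2.29 ± 0.59 SE (adjusted p = 0.00942), and a pseudocount of 10 made the log2 difference -1.404. The call ended without NaCl replicate 2, its highest library (log2 fold change -2.00, adjusted p = 0.0611, range 0.00518 to 0.0611). LXR alpha is best known from macrophages. The 15 markers of macrophages, monocytes and dendritic cells summed to 79.5 to 149 counts with itaconate and 43.9 to 80.6 with NaCl. Itgam was the largest single part of each itaconate sum, at 39.3, 70.1 and 67.7 counts, against 11.2, 7.03 and 24.5 with NaCl. Flt3 was the largest single part of each NaCl sum, at 16.3, 23.1 and 33.6 counts. The main gene of the sums therefore differed between the groups, and the sums say little about the markers as a whole. The part of these markers in the Nr1h3 difference was not tested. Csf1r, Adgre1, Cd14 and Lyz2 were each between 0 and 9.67 in every library. Of the 3 genes of the list that were tested, 1 passed, Itgam, which rose.

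Genes next to these pathways, from lists beside the 32, are set against the 18.2% of all tested genes that rose and the 17.8% that fell. Of 22 genes of intracellular sterol transport 6 rose and 4 fell (median log2 fold change 0.19), with the falls near the share of all tested genes. Besides Soat2, the smallest p was that of Osbpl2, an oxysterol-binding protein relative (-0.95 ± 0.09, adjusted p = 1.14e-05). A further list mixes LXR targets with RXR genes and coregulators. Of its 10 tested genes 4 rose and 2 fell (median 0.17). The smallest p were those of Abca7, an ABC transporter related to ABCA1 (1.15 ± 0.09, adjusted p = 3.8e-06), and Smpdl3a. Smpdl3a, a phosphodiesterase known as an LXR target in human cells, changed by 1.26 ± 0.20 (adjusted p = 0.000476). The other rises were Rxrb and the corepressor gene Ncor1, and the falls were Ncoa5 and Arl4c (-0.44 ± 0.16, adjusted p = 0.044). Lpcat3 did not pass (-0.16 ± 0.12, adjusted p = 0.337). Whether LXR targets changed as a group was not tested.

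In other branches and regulators the counts were small and, beside the same 18.2% and 17.8% of all tested genes, are no result about these lists. Among 17 genes that use the pathway's isoprenoids 2 rose and 2 fell (median log2 fold change -0.07). They include Fntb, the beta subunit of protein farnesyltransferase (0.97 ± 0.12, adjusted p = 7.02e-05), and Rabggta, a subunit of the geranylgeranyl transferase for RAB proteins (-0.83 ± 0.10, adjusted p = 7.37e-05). Of 14 tested genes of SREBP activation and sterol-driven protein degradation 2 rose and 3 fell (median -0.03), with the smallest p for Erlin1, an endoplasmic reticulum protein of that degradation (-0.82 ± 0.15, adjusted p = 0.00117), and Sec23a, a coat protein of vesicles that leave it (0.43 ± 0.10, adjusted p = 0.00533). Only 4 of 10 oxysterol genes were tested; 1 fell, Gpr183, a receptor for an oxysterol (-0.85 ± 0.21, adjusted p = 0.00696), and 0 rose.

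The itaconate libraries differed among themselves in a way that ran through the synthesis genes. Of the 21 members that rose, 16 had their highest itaconate value in replicate 1 and 17 their lowest in replicate 3. Relative to the NaCl mean, the median log2 value of the 9 enzymes from lanosterol to cholesterol was 1.34, 1.19 and 0.71 in itaconate replicates 1, 2 and 3, and -0.09, 0.09 and -0.02 in the NaCl replicates. A list of 15 G2 and M phase genes, all of which rose, had medians of 1.29, 1.03 and 0.56 in the same itaconate libraries and 0.09, -0.03 and -0.10 in the NaCl libraries. The efflux and LXR genes did not share that order, at -0.002, 0.22 and -0.04 in the itaconate libraries. The part of cell division in the rise of the sterol genes was not tested. The count of members that rose was 20 without itaconate replicate 1, 19 without replicate 2 and 21 without replicate 3.

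**Figure D5:**
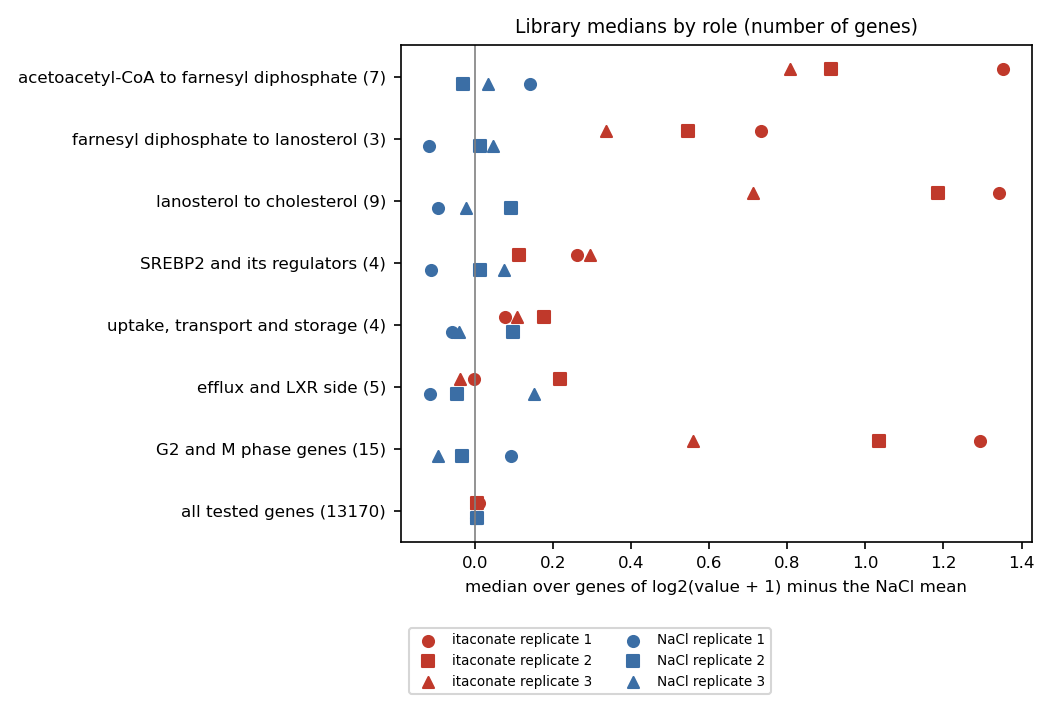
Median over the genes of each role of log2(value + 1) minus the NaCl mean (x axis), per library; red symbols are itaconate and blue symbols NaCl libraries, and the number of genes is in brackets. In the 3 groups of synthesis enzymes and in the G2 and M phase list, itaconate replicate 1 is highest and replicate 3 lowest.

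Estimated read totals were 20074299 to 22755248 with itaconate and 21015690 to 24144999 with NaCl, and no library stood apart in its total. The 10 T cell markers summed to 79858 to 82666 counts with itaconate and 73355 to 79773 with NaCl, with 5 of them higher, 3 lower and 2 not passing. Markers of B cells, at 252 to 384 with itaconate and 269 to 392.1 with NaCl, and of CD8 T cells, at 308 to 365 with itaconate and 363 to 408 with NaCl, were low in both groups, and 0 genes of either list passed the test. Erythroid and platelet markers were at 3.7 or below in each library, and S100a8, S100a9 and Elane, of the neutrophil list (15.9 to 30.8 with itaconate and 34.1 to 64.4 with NaCl), at 0. The NK cell list summed to 202 to 236 with itaconate and 95.4 to 130 with NaCl, nearly all of it Eomes, while Ncr1 and Klrb1c were between 0 and 2.05. Eomes passed the test and rose (log2 fold change 0.949 ± 0.195 SE, adjusted p = 0.0024). Stromal and endothelial markers summed to 465 to 607 with itaconate and 862 to 1037 with NaCl. Most of it was Pecam1, which T cells also express and which fell (log2 fold change -0.93 ± 0.14 SE, adjusted p = 0.000241). Cdh5 was between 0 and 1.03.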

How the data were processed

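The samples were 6 RNA-seq libraries of mouse splenic CD4+ T cells, 3 with itaconate and 3 with NaCl, grouped by title. Columns were matched by treatment code and replicate number, with NAC read as NaCl, which the sources used here do not spell out. The authors deposited normalized RSEM counts, per the name of their table, an expression signal that is never negative. Division by 1 factor per library is read from the values, where all entries fell on hundredths of a read under 1 step per library (within 0.01 of a hundredth), and the normalizing tool is not named. STAR 2.7.0f, RSEM 1.3.0 and mm10 are named in the submitters' processing notes, while the annotation, the strand setting and any filters are not given there. RSEM can divide reads between near-identical copies. Only 80.0% to 82.2% of values came out as whole reads (within 0.02 reads) when divided by each library's step, so count models were not used.

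For symbols on several entries (107, none a member) the entry with the highest mean was kept. Genes with a mean of at least 10 (13170) were fitted as log2(value + 1) in R 4.3.3, using limma 3.58.1 with a trend of variance on intensity, no covariate, two-sided, and Benjamini-Hochberg adjustment over all of them at 0.05. A fold change on that scale understates the change of low genes. The code of the fit was also run on simulated counts with 200 changed genes. Far more genes were called in these data, so that run does not vouch for the calls here. Replicates differed by more than sampling noise (chi-square per degree of freedom 12.9 to 25.8). Members and gene lists were chosen with earlier results of these data known, so counts are set beside those of all tested genes and no list was tested. All members were named, and of each other list up to 2 genes with the smallest p among those that passed. For the LXR target list, the other genes that passed and Lpcat3 were also named. The 16 alternatives were pseudocounts of 0.1 and 10, no filter or a mean of at least 100, 3 rescalings, the replicate number as a block, no intensity trend, robust variances and each library left out. The rescalings were by median ratio, to equal library totals and by quantile normalization. The median ratio was already 1.007 in all 6 libraries, so the first could change almost nothing. Gene positions, exon lengths and overlaps are from GENCODE M21 (GRCm38).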

Additional observations from a re-analysis of the deposited data

How the results depend on the processing

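Over the 16 alternatives, 0 of the 32 genes reversed a called direction, and the counts of rising genes, over all 32 and on each side, moved by less than 1.5 times. The 2 falls were less firm: the count of members that fell was 1 with a mean of at least 100, which leaves Nr1h3 untested, and 1 without an intensity trend, where Soat1 did not pass and the synthesis, transport and storage side had 0. With the replicate number as a block, the efflux and LXR side had 2 falls, and with a mean of at least 100 it had 0. With 1 library left out, the count of members that fell was 0 to 2, that of the synthesis side 0 to 1, and that of the efflux and LXR side 0 to 1, the value 0 arising without NaCl replicate 2. The median log2 fold change of the 5 efflux and LXR genes was 0.23 with a mean of at least 100 and -0.12 to 0.17 with 1 library left out, the lowest without NaCl replicate 3, so it has no firm sign. That of the transport and storage genes was 0.22 after quantile normalization, against 0.14. Deviations of same-numbered libraries correlated at 0.15, 0.04 and 0.13 across genes, and each library correlated best with its own number in the other group, a hint from the data only, since the labels do not tie the numbers to a mouse or day. The block called Nr1h2 (adjusted p = 0.0449) and changed no other member's call. It moved the count over all tested genes to 2854 that rose and 2780 that fell, against 2400 and 2340. A left-out library leaves 2 in its group, and depth (20074299 to 24144999 estimated reads) limits Nr1h3 alone among the members, at under 10 counts with itaconate.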
